A study of Homo sapiens with 2 samples.

Results

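The HOX genes were described in 2 human breast cancer cell lines, MDAMB468 and CAL51, from single-cell counts. HOX genes code for transcription factors that bind DNA through a homeodomain, and in the embryo they give cells their position along the body axis. They lie in 4 clusters, HOXA to HOXD, which arose by duplication of 1 ancestral cluster, so genes with the same number in different clusters (a paralog group) are close relatives. Within a cluster the genes of low number are active towards the head and those of high number towards the tail and in the limbs. Many adult tissues, the breast epithelium among them, keep a HOX pattern that depends on their origin, and tumours often alter it. The members were chosen by symbol alone, as all 39 genes named HOXA, HOXB, HOXC or HOXD followed by a number. Of these, 36 had a row in the deposited matrix of 30796 genes, namely 11 of 11 HOXA, 9 of 10 HOXB, 8 of 9 HOXC and 8 of 9 HOXD genes. HOXB8, HOXC5 and HOXD12 have no row there and were not analysed here. The matrix lists only genes with at least 1 UMI.

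Both lines are established lines that the labels call triple-negative breast cancer, the class low in oestrogen, progesterone and HER2 receptors. The labels name no treatment, genotype, passage or culture time for either. Each line was 1 library made with Drop-seq, which lyses cells in oil droplets and tags their RNA, from the bead in each droplet, with a barcode for the cell and a random tag for the molecule (the unique molecular identifier, or UMI). The 3′ end of each polyadenylated RNA was read, so 1 UMI stands for 1 captured molecule whatever the length of the transcript, and levels of different genes are set side by side without a length correction.

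The MDAMB468 library held 306 barcodes with 5501900 UMIs (median 10016.5 per barcode), and the CAL51 library, after 31 barcode sequences also found in the other library were left out, held 1346 barcodes with 16223444 UMIs (median 8635). Levels are in CPM, the UMIs of a gene scaled to the same total in each line, so 1 UMI is 0.182 CPM in MDAMB468 and 0.0616 CPM in CAL51. All intervals are 95% intervals and cover counting error only. With 1 library per line there was no replicate and no test of any difference between the lines. A further 64 MDAMB468 and 7 CAL51 barcodes lie within 1 base of another barcode of their own library that has 5 times as many UMIs or more. They were kept. Without them the log2 difference between the lines given below was -6.87 for HOXA (-6.92 with them) and 2.49 for HOXC (2.47), and with the 31 shared barcodes kept it was -6.91 and 2.34. Of 6 epithelial markers, KRT8, KRT18 and EPCAM had at least 3052 UMIs in each line. KRT19 had 10640 UMIs in MDAMB468 (1934 CPM) and 496 in CAL51 (30.6 CPM). CDH1, the epithelial cadherin, had 182 UMIs in MDAMB468 and 7 in CAL51, and KRT7 had 5243 and 0. ESR1 and PGR, which code for the oestrogen and progesterone receptors, had at most 3 UMIs in either line, and ERBB2, which codes for HER2, had 39 UMIs in MDAMB468 (7.09 CPM) and 262 in CAL51 (16.1 CPM). The haematopoietic markers in the matrix (2 of 5 listed) summed to 0 UMIs in MDAMB468 and 4 in CAL51, the 3 endothelial markers to 6 and 6, and the fibroblast markers in the matrix (3 of 4) to 3 and 60, of which PDGFRB held 0 and 44.

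The start regions of the HOXA and HOXD members that stand out in CAL51 are shown, with CpG dinucleotides (the usual site of DNA methylation) in capitals. Each is 200 bases, from 250 to 51 bases before the start, taken from RefSeq on GRCh38.p14 and read along the gene's strand. HOXA9, HOXA10 and HOXA11 were the highest HOXA members in CAL51, HOXA4 was the lowest there, and HOXD8 led the HOXD cluster.
HOXA9 (chr7:27165588-27165787, minus strand, 15 CpG): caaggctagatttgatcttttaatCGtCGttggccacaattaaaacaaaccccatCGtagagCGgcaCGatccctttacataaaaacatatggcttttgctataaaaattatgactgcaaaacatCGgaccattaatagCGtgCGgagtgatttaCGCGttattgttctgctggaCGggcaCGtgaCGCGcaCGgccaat
HOXA10 (chr7:27174371-27174570, minus strand, 17 CpG): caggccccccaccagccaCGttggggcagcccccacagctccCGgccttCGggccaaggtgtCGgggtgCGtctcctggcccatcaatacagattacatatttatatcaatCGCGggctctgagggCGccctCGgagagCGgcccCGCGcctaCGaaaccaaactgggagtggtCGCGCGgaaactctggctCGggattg
HOXA11 (chr7:27185283-27185482, minus strand, 9 CpG): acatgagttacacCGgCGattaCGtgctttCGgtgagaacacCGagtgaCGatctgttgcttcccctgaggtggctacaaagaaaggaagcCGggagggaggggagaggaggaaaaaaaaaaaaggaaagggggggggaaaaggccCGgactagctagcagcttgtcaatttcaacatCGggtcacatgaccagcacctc
HOXA4 (chr7:27130808-27131007, minus strand, 22 CpG): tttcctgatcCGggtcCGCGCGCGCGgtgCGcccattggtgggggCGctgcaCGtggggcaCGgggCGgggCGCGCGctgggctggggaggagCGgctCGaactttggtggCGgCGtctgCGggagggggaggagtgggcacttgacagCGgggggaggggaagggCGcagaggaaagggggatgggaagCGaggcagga
HOXD8 (chr2:176129455-176129654, plus strand, 17 CpG): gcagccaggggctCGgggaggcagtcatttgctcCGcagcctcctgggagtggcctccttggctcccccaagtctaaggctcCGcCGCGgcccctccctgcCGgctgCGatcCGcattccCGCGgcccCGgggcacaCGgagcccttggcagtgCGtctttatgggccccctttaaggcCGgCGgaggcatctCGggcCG
The table of promoters held 27 windows for 20 HOX genes, HOXC4 and HOXC5 having the same one. Most were HOXA or HOXD windows, several of them of HOXA3. HOXB1 was the only HOXB gene with a window, and HOXC4 and HOXC5 were the only HOXC genes. The shares below therefore describe mainly HOXA and HOXD. In the 250 bases before the start these windows had a median of 19 CpG dinucleotides, against 11 over 35116 windows of 27305 genes. At least 10 CpG were present in 21 HOX windows (77.8%) and in 52.2% of all windows. Searched on both strands, the letters CACGTG, which read the same on either strand, stood in 8 HOX windows (29.6%, against 6.34% of all windows), TATAAA in 5 (18.5%, against 10.7%) and TGATNNAT in 3 (11.1%, against 6.47%). The HOXA9 window held CACGTG and TATAAA, the HOXA4 window CACGTG, and the HOXD8 window none of the 3. The HOXA9 window had 20 CpG in its 250 bases and the HOXA4 window had 26, while their levels in CAL51 were 262 and 0.0616 CPM. No methylation or binding was measured here.

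Reads of close paralogs can be hard to tell apart, so the transcripts of GENCODE release 29 were compared letter by letter. Among 569 pairs of HOX genes in different clusters, the longest run of identical bases had a median of 15 bases, exceeded 30 bases in 13 pairs and exceeded 50 in 1, the 62 bases shared by HOXB3 and HOXD3.

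The cell lines differed in the HOX clusters that held most of their HOX molecules. CAL51 had 11147 HOX UMIs (687 CPM), of which 87.7% came from HOXA, 5.58% from HOXD, 3.71% from HOXB and 2.99% from HOXC. MDAMB468 had 931 HOX UMIs (169 CPM), of which 69.7% came from HOXC, 27.9% from HOXB, 2.36% from HOXA and none from HOXD. Summed over its members, HOXA was 151-fold higher in CAL51 (interval 99.5 to 241), and HOXD was at least 70.3-fold higher there, computed against a floor of 3 UMIs for the summed cluster in MDAMB468. HOXC was 5.75-fold higher in MDAMB468 (5.03 to 6.58) and HOXB was 1.85-fold higher there (1.58 to 2.17).

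Line differences of single genes are given as log2 of CPM + 1 in MDAMB468 minus the same in CAL51, on which genes of low count show less than their full difference. A gene with at least 20 UMIs over both lines was called higher or lower when this difference reached 1 in size. Of the 25 members with that many UMIs, 15 were lower in MDAMB468 (60%), against 18.6% of the 15347 genes of the matrix with that many, and 6 were higher (24%), against 15.8% of all genes. The median difference of the 25 was -2.25, and that of all 15347 genes was -0.13. A member with few UMIs reached 20 only through the line in which it was high, and the HOX genes were picked out with such differences known, so these shares are a description only. The 15 lower members were the 10 assessed HOXA and the 5 assessed HOXD genes, and the 6 higher ones were HOXB3, HOXB4, HOXC8, HOXC10, HOXC11 and HOXC13. HOXB7, HOXC4, HOXC6 and HOXC9 were called in neither direction. Just inside the threshold was HOXC13 (1.15), and just outside it was HOXC9 (0.93).

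**Figure D1:**
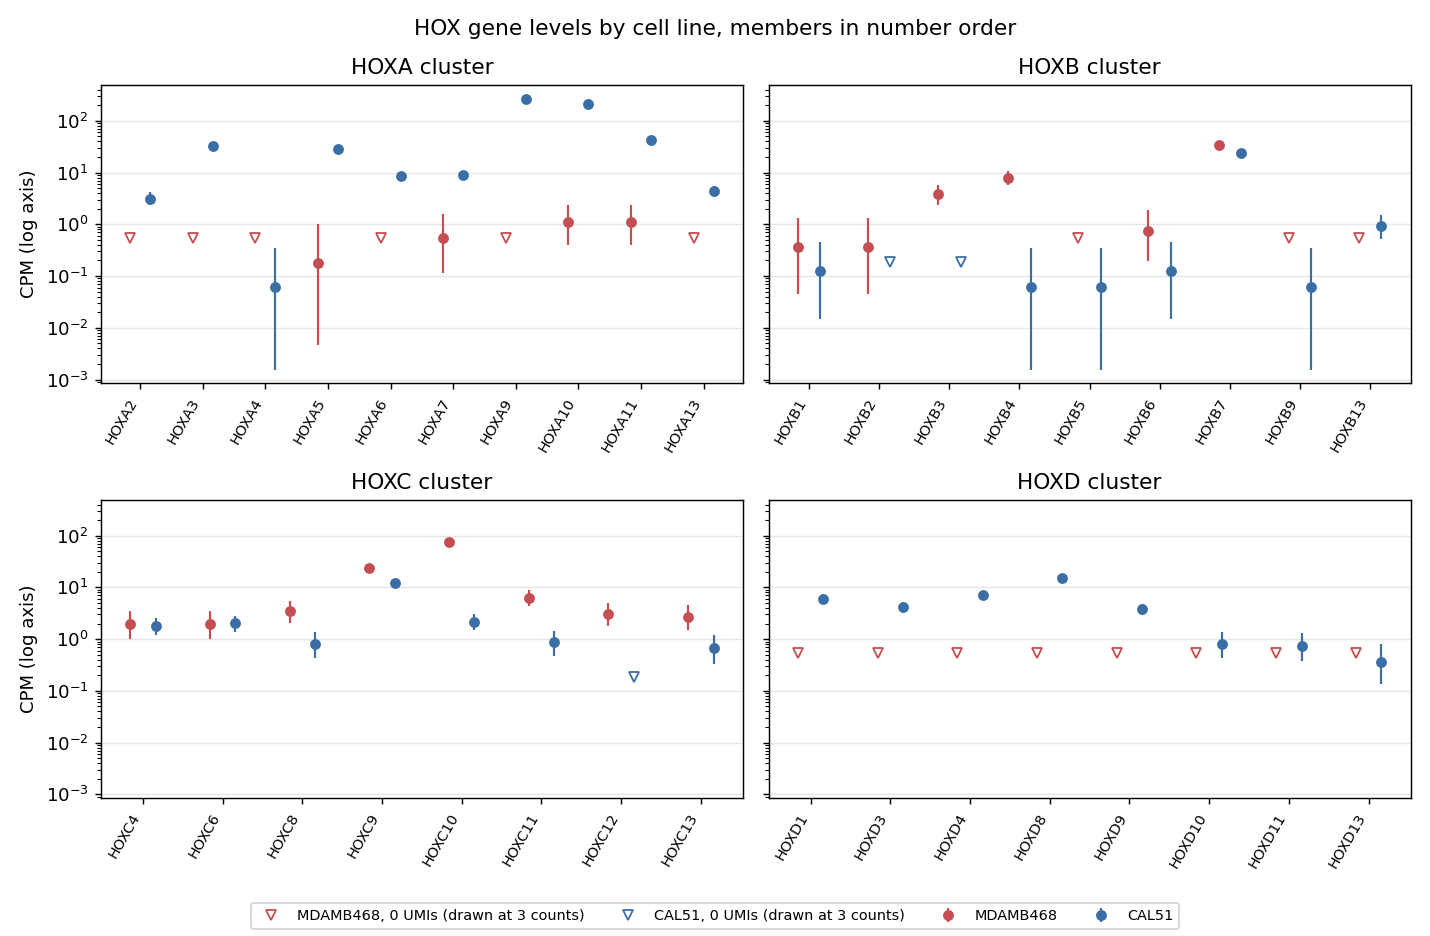
Level of each HOX gene in MDAMB468 (red) and CAL51 (blue), in CPM on a log axis, with the members shown of each cluster in number order. Points are levels in 1 library with 95% counting intervals, and open triangles are genes with 0 UMIs drawn at the level of 3 counts. The blue points lie above the red ones in HOXA, apart from HOXA4, and in HOXD, apart from HOXD13, whose blue point lies below the triangle, and the red ones lie highest at HOXC10 and HOXB7.

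Of the 36 members in the matrix, 17 had 0 UMIs in MDAMB468, 4 had 1 to 3, 9 had 4 to 19 and 6 had at least 20. In CAL51 3 had 0, 6 had 1 to 3, 7 had 4 to 19 and 20 had at least 20. A count of 0 is bounded here by a floor of 3 counts, 0.545 CPM in MDAMB468 and 0.185 CPM in CAL51, so a gene at 0 may still be expressed below that level. Among the 25 members with at least 20 UMIs over both lines, 10 were at 0 in MDAMB468 (40%), against 3.34% of all genes, and 1, HOXB3, was at 0 in CAL51 (4%), against 1.63%. Each of these reached 20 UMIs only through the line in which it was high, and CAL51 had more UMIs in all. The genes compared were not matched for level, so these shares too are a description only.

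The HOXA cluster lies on chromosome 7, with all its genes on the minus strand. It was broadly expressed in CAL51 and close to the limit of detection in MDAMB468, with 9778 UMIs (603 CPM, interval 591 to 615) against 22 (4.0 CPM, 2.51 to 6.05). Its posterior genes, those of high number, held most of the molecules. HOXA9, a factor best known for its part in blood stem cells and leukaemia, had 4258 UMIs in CAL51 (262 CPM, interval 255 to 270.5) and 0 in MDAMB468. It was at least 481-fold higher in CAL51 and alone made up 43.5% of the HOXA molecules of that line. HOXA10, which is required in the developing uterus, had 3381 UMIs in CAL51 (208 CPM) and 6 in MDAMB468 (1.09 CPM), and was 191-fold higher in CAL51 (87.7 to 521). HOXA11, which acts in limb and uterus development, had 686 UMIs in CAL51 (42.3 CPM) and 6 in MDAMB468 (1.09 CPM), a 38.8-fold difference (17.7 to 106). Within CAL51 the intervals of these 3 genes did not overlap. HOXA9 ranked 671 and HOXA10 ranked 886 by UMIs among the 27677 genes detected in that line. In the annotation HOXA9 shares 15.9% of its exon bases with another transcript of the same strand and 13.9% on the opposite strand. For HOXA10 these shares are 9.93% and 16.4%. The part of shared bases in either count was not tested.

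HOXA2 to HOXA7 were lower in CAL51 than HOXA9 to HOXA11 but were still called, apart from HOXA4. HOXA3, a gene of the developing pharynx and thymus, had 527 UMIs in CAL51 (32.5 CPM, interval 29.8 to 35.4) and 0 in MDAMB468, at least 59.6-fold higher in CAL51. HOXA5, which acts in lung development, had 461 UMIs in CAL51 (28.4 CPM, 25.9 to 31.1) and 1 in MDAMB468. The intervals of these neighbours in level, HOXA3 and HOXA5, overlapped in CAL51. HOXA7 had 143 UMIs in CAL51 (8.81 CPM) and 3 in MDAMB468 (0.545 CPM). HOXA6 had 140 (8.63 CPM) and 0, and its interval in CAL51 overlapped that of HOXA7.

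HOXA13, the most posterior gene of the cluster and a factor of the limb tips and the genital tract, had 71 UMIs in CAL51 (4.38 CPM) and 0 in MDAMB468. HOXA2 had 51 (3.14 CPM) and 0. HOXA4 broke the run, with 1 UMI in CAL51 and 0 in MDAMB468, although it lies between HOXA3 and HOXA5. In the annotation 31.0% of its exon bases are shared with another transcript of the same strand and 16.3% with one of the opposite strand. How reads in shared bases were assigned is not stated in the sources at hand, and their part in the low count was not tested.

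RNA from one library could reach barcodes of the other, so 2 genes of high level in CAL51 were read in MDAMB468. GSTP1 had 85390 UMIs in CAL51, and its level in MDAMB468 (9 UMIs) was 0.0311% of that (interval 0.0142% to 0.0590%), while GPC3 had 10814 UMIs and 0. The level of HOXA10 in MDAMB468 was 0.523% of its level in CAL51 (0.192% to 1.14%) and that of HOXA11 was 2.58% (0.946% to 5.61%). GSTP1 and GPC3 were chosen with earlier results of these data known. Whether the HOXA10 and HOXA11 UMIs of MDAMB468 came from the other library was not tested. For HOXA9, which had 0 UMIs in MDAMB468, the share was at most 0.208%, from the same floor of 3 counts as its fold.

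The HOXD cluster spans chromosome 2 from 176092891 to 176190907 on GRCh38, with its genes on the plus strand. It had 622 UMIs in CAL51 (38.3 CPM, interval 35.4 to 41.5) and not a single UMI for any of its 8 members in MDAMB468. HOXD8 was its highest member in CAL51, with 247 UMIs (15.2 CPM, 13.4 to 17.2) and 39.7% of the cluster. HOXD4 had 117 UMIs (7.21 CPM, 5.96 to 8.64), HOXD1 had 99 (6.10 CPM, 4.96 to 7.43) and HOXD3 had 67 (4.13 CPM, 3.20 to 5.24). The intervals of HOXD4 and HOXD1 overlapped, as did those of HOXD1 and HOXD3. HOXD9, with 61 UMIs (3.76 CPM), completed the 5 members called lower in MDAMB468, and the bounds of these 5 ran from at least 6.90-fold (HOXD9) to at least 27.9-fold (HOXD8). The most posterior members were the lowest in CAL51. HOXD10 had 13 UMIs, HOXD11 had 12 and HOXD13, a limb patterning factor whose variants cause digit malformations, had 6. With 0 in MDAMB468 these 3 had too few UMIs to be assessed. The values of HOXD4, HOXD3 and HOXD1 are uncertain, since 80.5% and 62.2% of the exon bases of HOXD4 and HOXD3 are shared with another transcript of the same strand and 58.1% of those of HOXD1 with transcripts of the opposite strand. HOXD8 and HOXD9 share none of their exon bases with another gene.

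The HOXC cluster, on chromosome 12 from 53938765 to 54056030, was the main HOX cluster of MDAMB468, with 649 UMIs (118 CPM, interval 109 to 127) against 333 in CAL51 (20.5 CPM, 18.4 to 22.9). HOXC10, a posterior gene active in the hindlimb and lumbar spinal cord, had 408 UMIs in MDAMB468 (74.2 CPM, 67.1 to 81.7) and 35 in CAL51 (2.16 CPM), 34.4-fold higher in MDAMB468 (24.3 to 50.04). It made up 62.9% of the HOXC molecules of MDAMB468 and 10.5% of those of CAL51, and ranked 2324 by UMIs among 23850 genes detected in MDAMB468. HOXC10 shares 7.12% of its exon bases with another transcript of the same strand and 2.70% on the opposite strand. Its neighbours towards the posterior end were also called higher there or were not detected in CAL51. HOXC11 had 35 UMIs in MDAMB468 (6.36 CPM) and 14 in CAL51 (0.863 CPM), a 7.37-fold difference (3.87 to 14.8). HOXC12 had 17 (3.09 CPM) and 0, which is too few for a call. HOXC13, a gene of hair and nail formation, had 15 (2.73 CPM) and 11 (0.678 CPM), a 4.02-fold difference (1.73 to 9.68).

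The other HOXC genes were found in both lines. HOXC9 stood at 24.2 CPM in MDAMB468 (133 UMIs, interval 20.2 to 28.6) and at 12.2 CPM in CAL51 (198 UMIs, 10.6 to 14.03), 1.98-fold higher in MDAMB468 (1.58 to 2.48) and just short of the threshold. In CAL51 it was the leading HOXC gene, with 59.5% of the cluster, while in MDAMB468 it held 20.5%. HOXC8, a thoracic patterning gene, had 19 UMIs in MDAMB468 (3.45 CPM) and 13 in CAL51 (0.801 CPM), a 4.31-fold difference (2.02 to 9.49). HOXC6 had 11 (2.0 CPM) and 33 (2.03 CPM), and HOXC4 had 11 (2.0 CPM) and 29 (1.79 CPM). The fold of HOXC4 between the lines, 1.12, had an interval of 0.504 to 2.31, so differences of up to about that size in either direction were not detectable at this depth. The value of KRT7, with 5243 UMIs in MDAMB468 and 0 in the kept CAL51 barcodes, puts that gene in CAL51 at no more than 0.0194% of its MDAMB468 level, from the floor of 3 counts. HOXC10 in CAL51 stood at 2.91% (2.03% to 4.05%) and HOXC11 at 13.6% (7.42% to 22.8%) of their MDAMB468 levels. KRT7 too was chosen with earlier results known, and whether these HOXC UMIs came from the other library was not tested.

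The HOXB cluster, on chromosome 17 from 48528526 to 48729178, was led by a single gene in both lines. Its members summed to 47.3 CPM in MDAMB468 (260 UMIs, interval 41.7 to 53.4) and to 25.5 CPM in CAL51 (414 UMIs, 23.1 to 28.1). HOXB7, which has been studied for its overexpression in breast cancer, had 187 UMIs in MDAMB468 (34.0 CPM, 29.3 to 39.2) and 392 in CAL51 (24.2 CPM, 21.8 to 26.7). It held 71.9% of the HOXB molecules of MDAMB468 and 94.7% of those of CAL51. Its difference was 1.41-fold (1.18 to 1.68), below the threshold, and no exon base of HOXB7 is shared with another gene. Of the 4 members called in neither direction, HOXB7 had the highest level in both lines.

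Anterior HOXB genes were found in MDAMB468. HOXB4, known for expanding blood stem cells, had 44 UMIs in MDAMB468 (8.0 CPM) and 1 in CAL51 (0.0616 CPM), a 130-fold difference whose interval runs from 22.1 to 5239.6. HOXB3 had 21 UMIs (3.82 CPM) and 0, at least 20.6-fold higher in MDAMB468. The exons of HOXB3 and HOXB4 overlap each other on the same strand, so their values are uncertain. The remaining members were near or at 0: HOXB1 had 2 UMIs in MDAMB468 and 2 in CAL51, HOXB2 had 2 and 0, HOXB6 had 4 and 2, and HOXB5 and HOXB9 had 0 and 1 each. HOXB13, which lies apart from the rest of the cluster and is a marker of prostate epithelium, had 0 UMIs in MDAMB468 and 15 in CAL51 (0.925 CPM).

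Grouped by paralog number, the lines drew on different clusters for the same group. In group 10 HOXC10 supplied 98.6% of the 414 UMIs of MDAMB468 and HOXA10 98.6% of the 3429 UMIs of CAL51. In group 9 all 133 UMIs of MDAMB468 were HOXC9, and HOXA9 supplied 94.2% of the 4518 of CAL51. In group 11 the leaders were HOXC11 (85.4% of 41) and HOXA11 (96.3% of 712), and in group 8 HOXC8 (all 19) and HOXD8 (95.0% of 260). Group 13 was led by HOXC13 in MDAMB468 (all 15) and by HOXA13 in CAL51 (68.9% of 103). The anterior groups differed in another way. Group 4 came from HOXB4 in MDAMB468 (80.0% of 55) and from HOXD4 in CAL51 (79.1% of 148), and group 3 from HOXB3 (all 21) and HOXA3 (88.7% of 594).

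Group 7 differed from these, with HOXB7 in the lead in MDAMB468 (98.4% of 190) and in CAL51 (73.3% of 535). Summed over paralogs, group 7 stood at 34.5 CPM in MDAMB468 and 33.0 CPM in CAL51, and group 4 at 9.997 and 9.12 CPM. Groups 9 and 10 were unequal even when summed, at 24.2 against 278 CPM and 75.2 against 211 CPM. Group 5 was almost only HOXA5 in CAL51 (99.8% of 462), with 1 UMI in MDAMB468.

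**Figure D2:**
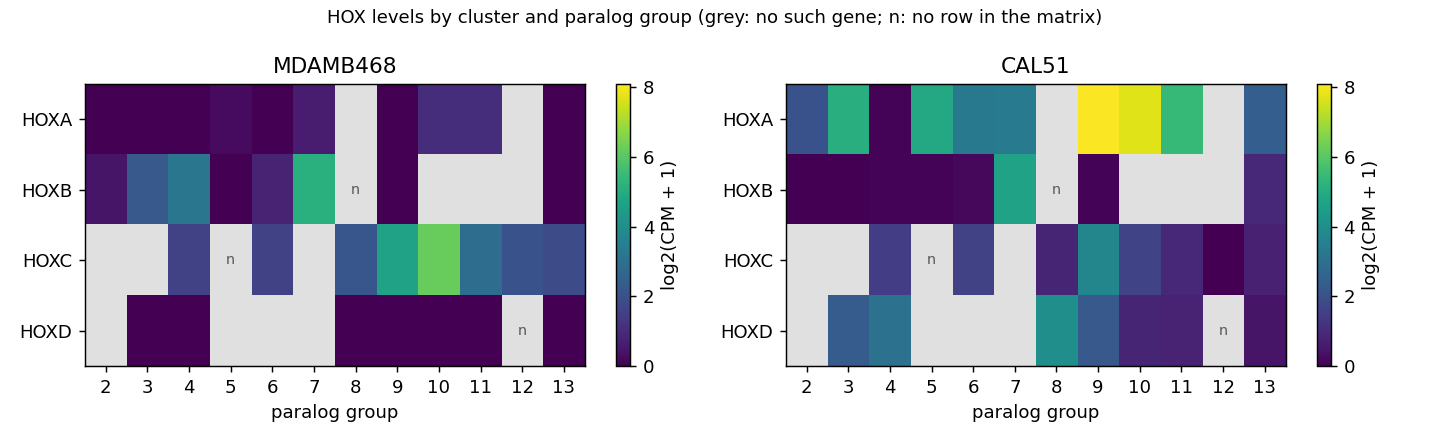
Level of each HOX gene as log2 of CPM + 1, by cluster (rows) and paralog group (columns, 2 to 13), in MDAMB468 (left) and CAL51 (right). Grey squares have no gene, and the letter n marks the 3 genes with no row in the matrix. The brightest squares of CAL51 lie in the HOXA row at groups 9 and 10, and those of MDAMB468 in the HOXC and HOXB rows.

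HOX transcripts were also counted per barcode, after every barcode was thinned at random to 2500 UMIs, which all barcodes reached. At least 1 HOX UMI was present in 34.0% of MDAMB468 barcodes (interval 28.7% to 39.6%) and in 80.1% of CAL51 barcodes (77.9% to 82.2%). Without thinning the shares were 74.2% and 97.3%. The 64 MDAMB468 and 7 CAL51 barcodes within 1 base of a larger one were counted as separate barcodes. The intervals of the shares do not allow for this. HOXA transcripts were found in 76.0% of thinned CAL51 barcodes (73.6% to 78.3%) and in 1.31% of those of MDAMB468 (0.357% to 3.31%). HOXD transcripts were found in 9.96% of CAL51 barcodes (8.41% to 11.7%) and in 0 of 306 MDAMB468 barcodes, also without thinning, where 3 of 306 barcodes would be 0.98%. This limits barcodes with a UMI and not cells that express a HOXD gene. HOXC transcripts were in 24.5% of MDAMB468 barcodes (19.8% to 29.7%) and 4.83% of CAL51 barcodes (3.75% to 6.11%), and HOXB transcripts in 12.4% (8.94% to 16.6%) and 5.20% (4.08% to 6.53%). GSTP1, read as a gene of CAL51, was seen in 9 of the 306 MDAMB468 barcodes without thinning. HOXA transcripts, also without thinning, were seen in 19 of the 306 (6.21%, 3.78% to 9.53%).

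By gene, HOXA9 was seen in 44.8% (42.1% to 47.5%) and HOXA10 in 42.8% (40.1% to 45.5%) of thinned CAL51 barcodes, and these intervals overlap. HOXA11 followed with 10.3%, HOXA3 with 8.77%, HOXA5 with 8.40% and HOXB7 with 5.05%. In MDAMB468 HOXC10 was seen in 15.4% (11.5% to 19.9%), HOXB7 in 10.5% (7.26% to 14.4%) and HOXC9 in 6.21% (3.78% to 9.53%). Unthinned barcodes had a mean of 3.57 different HOX genes in CAL51 (median 3, at most 14) and 1.72 in MDAMB468 (median 1, at most 8). HOXA expression was spread through the CAL51 library. Only 54 of its 1346 barcodes had no HOXA UMI. They had a median of 4055 UMIs (at most 10604), against 8911 in the 1292 others, and the part of depth was not tested.

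**Figure D3:**
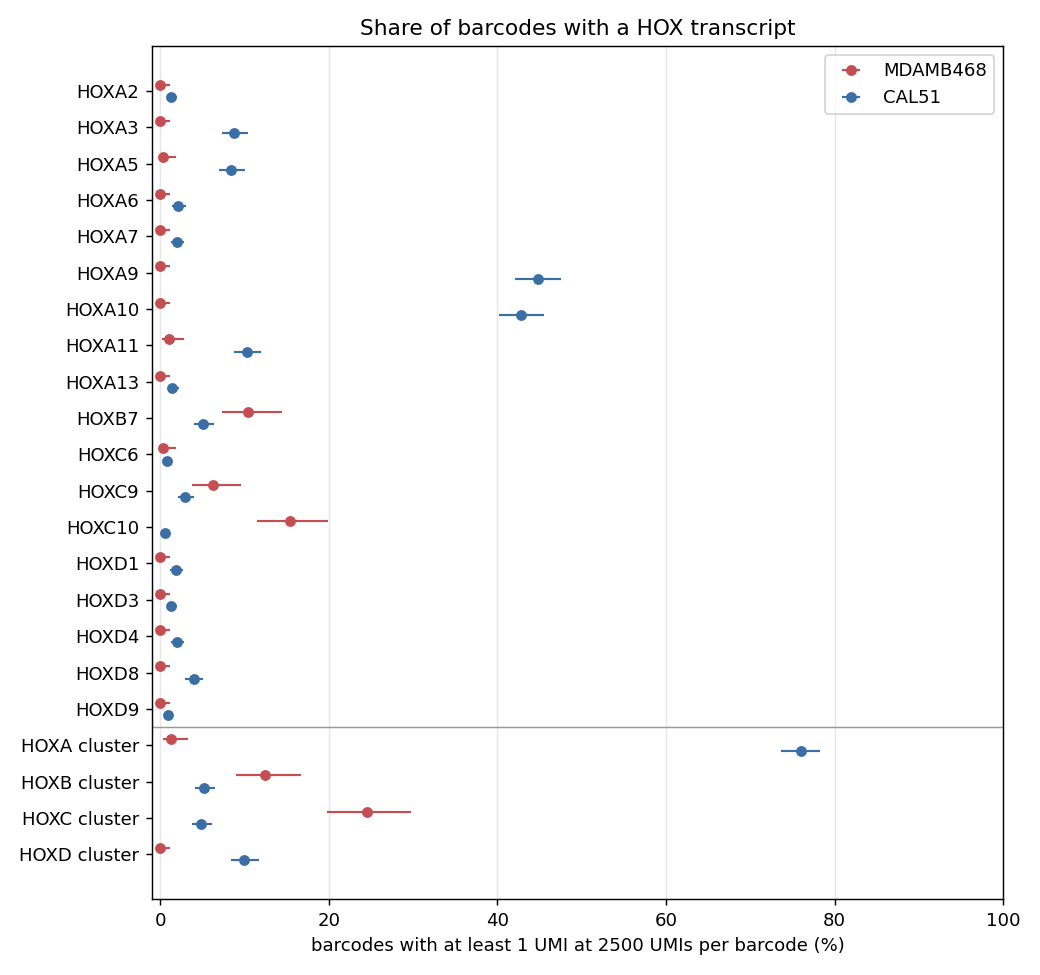
Share of barcodes with at least 1 UMI, for the members seen in the most barcodes of either line and for the summed clusters, after thinning to 2500 UMIs per barcode. Points are shares in 306 MDAMB468 (red) and 1346 CAL51 (blue) barcodes, and bars are exact 95% binomial intervals. HOXA9 and HOXA10 stand at 44.8% and 42.8% in CAL51, and the summed HOXA cluster reaches 76.0%.

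The spread of HOX counts between barcodes was set beside that of other genes of like level. The variance over the mean of HOXA9 at 2500 UMIs was 1.23 in CAL51, against a median of 1.09 over 347 genes of like mean, 86.5% of which were lower. For HOXA10 it was 1.07, against a median of 1.08. For HOXC10 in MDAMB468 it was 0.960, against 1.03. Over the members with at least 20 UMIs after thinning in CAL51, the lowest was HOXD1 with 0.982, against 0.985. The highest was HOXA13 with 1.26, against 0.987, and 97.3% of its genes of like mean were lower. HOXA13 was seen in only 19 thinned barcodes, so its value rests on few UMIs and would vary with the random draw. HOXA9 was present in 46.5% of thinned CAL51 barcodes that held HOXA10 (42.4% to 50.7%) and in 43.5% of those that did not (39.97% to 47.1%), and these intervals overlap. Without thinning the shares were 82.5% (80.1% to 84.7%) and 69.2% (63.4% to 74.5%), but these barcodes differed in depth.

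The clusters also hold non-coding RNAs, several of them transcribed from the strand opposite to the HOX genes. Of 19 listed, 15 were in the matrix and 11 had enough UMIs for a call. Of these, 8 were lower and 3 higher in MDAMB468, against 18.6% and 15.8% of all genes, with a median difference of -3.35 against -0.13. The 3 higher ones lie in HOXC and the 8 lower ones in HOXA and HOXD. With a pseudocount of 10 CPM 1 was higher and 7 were lower, and with no minimum of UMIs 5 were higher. HOTAIR, transcribed from the HOXC cluster and known from work on Polycomb repression of HOXD genes in other cells, had 199 UMIs in MDAMB468 (36.2 CPM) and 1 in CAL51 (0.0616 CPM), the highest difference of the list at 5.13. HOXC-AS3 had 53 UMIs in MDAMB468 and 0 in CAL51, and HOXC-AS1 had 27 and 13. A link between HOTAIR and the absence of HOXD counts in MDAMB468 was not tested, since the 2 lines give 1 value each.

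RNAs of the HOXA and HOXD clusters were found in CAL51. HOXA10-AS had 602 UMIs there and 1 in MDAMB468, the lowest difference at -5.01, HOXA-AS3 had 308 and 0, HOXA11-AS 212 and 0, and HOXA-AS2 209 and 2. From the HOXD cluster HOXD-AS2 had 239 and 0, HAGLROS 206 and 0 and HAGLR 124 and 0. HOTAIRM1, a myeloid-associated RNA, was the most abundant of these RNAs in CAL51, with 1098 UMIs (67.7 CPM), and had the most UMIs of the HOXA RNAs in MDAMB468, with 43 (7.82 CPM), an 8.66-fold difference (6.39 to 12.04). Over all other annotated genes within the HOXA span, 8 were in the matrix with 46 UMIs in MDAMB468 and 2458 in CAL51. The HOXC span had 8 with 306 and 24, the HOXD span 5 with 0 and 576, and the HOXB span 3 with 6 and 6. The use of strand in counting is not stated in the sources used here, so reads of a HOX gene and its antisense partner may not be separated. The share of exon bases that face a transcript of the other strand was 62.5% for HOXA7, 58.1% for HOXD1, 39.3% for HOXA6 and 31.1% for HOXA11.

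The genes next to the clusters lay within a narrower range. Of 27 flanking genes listed, 24 had enough UMIs, with 10 lower and 1 higher in MDAMB468 (18.6% and 15.8% of all genes) and a median of -0.62. With a pseudocount of 10 CPM 6 were lower. The highest was HIBADH, a mitochondrial dehydrogenase gene, at 1.23, and the lowest was SNX10, a sorting nexin gene, at -2.27, and both lie near HOXA. SKAP2, which borders HOXA, had 263 UMIs in MDAMB468 (47.8 CPM) and 2215 in CAL51 (137 CPM), 2.86-fold higher in CAL51. MTX2, which borders HOXD on the HOXD1 side, had 350 UMIs in MDAMB468 (63.6 CPM) and 1634 in CAL51 (101 CPM), at -0.65, while the whole HOXD cluster beside it had 0 UMIs in MDAMB468. LNPK, on the other side of HOXD, had 179 (32.5 CPM) and 754 (46.5 CPM), at -0.50. CHN1, another of the listed flanking genes, had 0 UMIs in MDAMB468 and 49 in CAL51 (3.02 CPM), at -2.01. A count of 0 in MDAMB468 was thus not confined to the clusters.

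**Figure D4:**
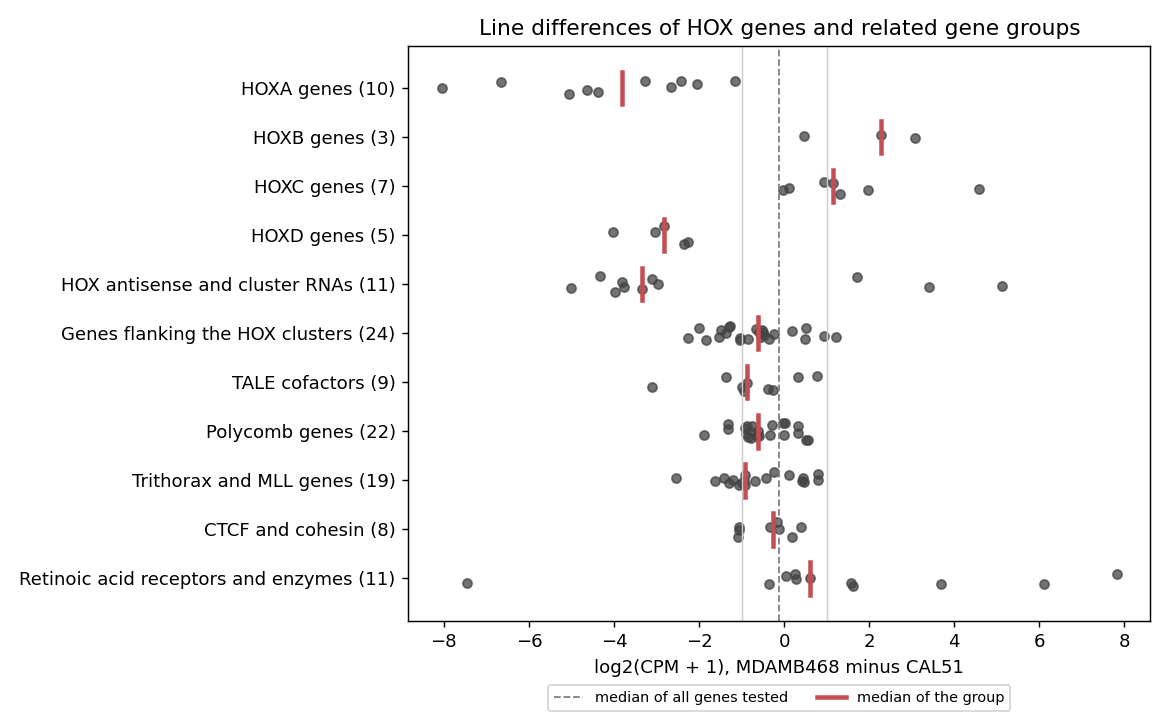
Line difference, as log2 of CPM + 1 in MDAMB468 minus CAL51, of the HOX genes of each cluster and of related gene groups with at least 20 UMIs over both lines (number in brackets). Each point is a gene, red bars are group medians, the dashed line is the median of all 15347 genes (-0.13) and grey lines mark the threshold of 1 in either direction. HOXA, HOXD and most cluster RNAs lie to the left, and the Polycomb, Trithorax, CTCF and flanking groups lie between -2.55 and 1.23.

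HOX proteins bind DNA with partners of the TALE homeodomain class, the PBX, MEIS and PREP proteins. The TALE genes listed here also include TGIF1 and TGIF2, which belong to none of these families. Of 11 listed, 9 had enough UMIs, with 2 lower, none higher and a median of -0.88, a share near the 18.6% of all genes that were lower. Lower members numbered 4 with a pseudocount of 0.1 CPM and 5 with the mean of per-barcode CPM. PBX3 was the lowest, with 8 UMIs in MDAMB468 (1.45 CPM) and 324 in CAL51 (19.97 CPM), 13.7-fold higher in CAL51 (6.89 to 32.1). MEIS2 was the other called member, with 93 (16.9 CPM) and 737 (45.4 CPM). TGIF1 was the highest of the list at 0.77. MEIS1, the usual partner of HOXA9 in leukaemia, was low in both, with 18 (3.27 CPM) and 67 (4.13 CPM).

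Polycomb complexes keep HOX clusters silent and Trithorax and MLL complexes keep them active, and both groups were expressed in both lines. Of 23 Polycomb genes, 22 had enough UMIs, with 3 lower, none higher and a median of -0.62, no more than the 18.6% of all genes that were lower. EZH2, the methyltransferase of the complex that marks silent chromatin, had 1466 UMIs in MDAMB468 (266 CPM) and 3469 in CAL51 (214 CPM), 1.246-fold higher in MDAMB468. CBX2 was the highest at 0.57 and PHC1 the lowest at -1.88. All 19 Trithorax and MLL genes had enough UMIs, with 6 lower (18.6% of all genes), none higher (15.8% of all genes) and a median of -0.92. KMT2A, the MLL gene itself, stood at 99.6 CPM in MDAMB468 and 73.1 CPM in CAL51, a difference of 0.44. WDR5 was the highest at 0.80, and MLLT3, a partner of MLL in leukaemic fusions, the lowest at -2.55, with 20 UMIs in MDAMB468 (3.64 CPM) and 424 in CAL51 (26.1 CPM). With edgeR TMM scaling the count of lower genes became 10 in the Trithorax and MLL group, 5 in the Polycomb group and 4 in the TALE group, while the share of all genes called lower became 21.7%. With the total taken without mitochondrial and ribosomal protein genes these counts were 5, 3 and 2. With a pseudocount of 10 CPM the Trithorax and MLL count was 3. CTCF and cohesin, which shape loops at the clusters, had 3 of 8 genes lower (18.6% of all genes), with CTCF the lowest at -1.09 and RAD21 the highest at 0.39. These 3 lay close to the threshold, and the count was 0 with the total without mitochondrial and ribosomal protein genes and 1 with a pseudocount of 10 CPM.

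Retinoic acid switches on HOX genes from the anterior end of a cluster, and its carriers and enzymes differed between the lines in both directions. Of 18 genes listed, 11 had enough UMIs, with 5 higher and 1 lower in MDAMB468 (15.8% and 18.6% of all genes) and a median of 0.61. With a pseudocount of 10 CPM 3 were higher. CRABP2, which carries retinoic acid to its nuclear receptors, was the highest, with 5602 UMIs in MDAMB468 (1018 CPM) and 57 in CAL51 (3.51 CPM), at 7.82. ALDH1A3, a retinaldehyde dehydrogenase, had 495 (90.0 CPM) and 5 (0.308 CPM). ALDH1A1, of the same enzyme family, was the lowest at -7.45, with 12 UMIs in MDAMB468 (2.18 CPM) and 9001 in CAL51 (555 CPM). Of 8 ParaHox and EVX genes, the close relatives of the HOX genes outside the 4 clusters, 3 were in the matrix, with 5 UMIs in MDAMB468 and 11 in CAL51 in all, and none had enough UMIs for a call.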

How the data were processed

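The authors deposited 1 matrix of UMI counts, whole numbers for each gene in each barcode, from 1 Drop-seq library per cell line. STARsolo is named in the submitters' processing notes without a version. The genome build, the annotation, the use of strand and the selection of barcodes are not given in the sources at hand. Barcodes were assigned to a line by the line name that starts each deposited barcode name, and barcodes were neither filtered further nor searched for doublets. Symbols were matched to Ensembl identifiers through a table that held 30730 of the 30796 identifiers. Positions and exon overlaps are those of GENCODE release 29 on GRCh38, and promoter windows are those of RefSeq on GRCh38.p14.

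Counts were summed per line and divided by the line's total to give CPM. Counts carry exact Poisson intervals, folds exact conditional binomial intervals, and barcode shares exact Clopper-Pearson ones. A gene at 0 was given a floor of 3 counts in that library. Line differences used a pseudocount of 1 CPM, a minimum of 20 UMIs over both lines and a threshold of 1 on the log2 scale. Since p-values would need replicates, none was computed. The alternatives were other pseudocounts (0.1 and 10 CPM), no minimum of UMIs, edgeR 4.0.16 TMM factors (R 4.3.3), a total without mitochondrial and ribosomal protein genes, the mean of per-barcode CPM, and other choices of barcodes. The calculations were tested on simulated data. The values of some single genes are not reported here, although sums and counts over a cluster or list include them. Of each other list the genes with the highest and lowest difference are named, with any needed to say what the list holds. The members and lists were chosen with earlier results of these data known. The scripts ran under Python 3.11.15 with scipy 1.17.1, numpy 2.4.6, matplotlib 3.10.9 and pandas 2.3.3.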

Additional observations from a re-analysis of the deposited data

Results flagged for a closer look

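The 31 CAL51-labelled barcodes whose sequence also occurs in MDAMB468 were left out of every comparison above, and HOX UMIs were present in them. They held 135240 UMIs in all. HOXC10 had 20 UMIs there (148 CPM, interval 90.3 to 228), against 74.2 CPM in MDAMB468 and 2.16 CPM in the other CAL51 barcodes. HOXC9 had 8 UMIs (59.2 CPM, 25.5 to 117), HOXB7 had 7 (51.8 CPM, 20.8 to 107), and HOXA9 and HOXA10 had 5 each (37.0 CPM, 12 to 86.3), against 262 and 208 CPM in the other CAL51 barcodes. The interval of HOXC10 in these barcodes lies above its level in both lines, and those of HOXA9 and HOXA10 lie between the levels of the 2 lines.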

How the results depend on the processing

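The directions of the 21 called HOX genes were the same under all 9 other settings, and 7 of them (HOXA3, HOXA5, HOXA9, HOXA10, HOXA11, HOXC10 and HOXD8) stayed past the threshold under each. A pseudocount of 10 CPM left 1 gene higher and 6 lower in MDAMB468, because it shrinks the difference of genes with low levels. HOXC6, which was not called, had differences from -0.72 to 0.06, and HOXC9 from 0.62 to 1.12. With the total taken without mitochondrial and ribosomal protein genes the summed HOXD difference was -5.56. The median of all genes was -0.24 with TMM factors and -0.03 with that total, against -0.13. The share of barcodes with a HOX UMI was 74.2% in MDAMB468 and 97.3% in CAL51 without thinning, and 17.3% and 49.0% after thinning to 1000 UMIs. Of the 324 values of single genes under other settings, 56 moved by more than their counting interval and none reversed a call. No paired analysis was possible because each line has 1 library. Counts of 0 in MDAMB468 exclude no level below 0.545 CPM, and nothing here measures variation between cultures.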
